A study of Rattus norvegicus with 4 samples.

Results

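Steroid-metabolising enzymes were followed in rat myometrium, the muscle layer of the uterus, through 10 genes: Hsd11b1, Hsd11b2, Hsd17b2, Hsd17b10, Srd5a1, Sult1a1, Sult1e1, Cyp11a1, Cyp17a1 and Cyp19a1. A probe set, a group of short oligonucleotides for 1 transcript, was taken when the only symbol the platform table gave it was in this list. That found 11 probe sets for 9 of the 10 genes, among 4741 named genes on the array, and none for Srd5a1. The 2 probe sets of Sult1e1 carry its symbol on more than 1 gene identifier.

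Female rats aged 60 days had been ovariectomized a week before treatment, so every animal lacked the ovarian source of steroids. They received estradiol benzoate, a slowly released ester of estradiol, under the skin at a dose of 10 µg per kg, or vehicle alone, and the uterine horns were taken 24 or 6 h later. The 4 groups, estradiol at 24 h, control at 24 h, estradiol at 6 h and control at 6 h, each had 1 oligonucleotide array with the pooled RNA of 6 animals, so no value has an error and no difference was tested. A signal counted as dim when it was not above the floor, the 40th percentile of its array, which lay between 89.5 and 108 signal units.

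Enzymes of this kind set how much active steroid reaches a receptor inside a target cell. Hydroxysteroid dehydrogenases switch a steroid between an active and an inactive form, sulfotransferases add a sulfate group that blocks receptor binding, and cytochrome P450 enzymes build steroids from cholesterol or turn androgens into estrogens. In the uterus they act beside the receptors for estrogen, progesterone and glucocorticoid.

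The labels were checked with Igf1, Pgr and S100g, genes known to be induced by estrogen in the rat uterus. Relative to the control they were 7.79-fold, 3.27-fold and 2.74-fold higher with estradiol at 24 h. At 6 h the estradiol-labelled array had them 11.2-fold, 5.79-fold and 10.6-fold lower than the control-labelled one. The labels at 6 h are thus opposed by these genes, and directions at 6 h follow the labels without settling them. The wash record of the 24 h control array holds an error. The arrays of a time share a scan day, which differs between the times, so each estradiol comparison stays within 1 scan day, while time and day cannot be told apart. All 10 smooth muscle markers on the array were above the floor on the 4 arrays, with summed signals from 82838 to 116839, and none of them differed 2-fold at either time. In RNA from a whole tissue, fewer cells of a type and less RNA per cell cannot be told apart.

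Among the enzymes, Hsd11b2 and Sult1a1 differed most, and in opposite directions. With estradiol at 24 h Hsd11b2 was 7.57-fold higher and Sult1a1 7.34-fold lower than in the control. At 6 h, on the estradiol-labelled array, Hsd11b2 was 8.33-fold lower, Hsd11b1 2.24-fold lower and Sult1a1 4.66-fold higher than on the control-labelled one. Hsd17b10 lay within 2-fold on all arrays, and Hsd17b2, Cyp11a1 and Cyp17a1 were dim on every array. A gene, represented by its brightest probe set, passed the rule used here when its log2 difference reached 1, that is 2-fold, with the brighter array above its floor. At 24 h 2 enzymes passed, 1 in each direction, where 16.7% of the 3624 genes above the floor on at least 1 array did, 8.66% as higher and 8.03% as lower. At 6 h 3 passed, 1 higher and 2 lower, where the share over all such genes was 11.5%, with 6.46% higher and 5.08% lower. Of the 9 genes with a probe set, 6 were above the floor on at least 1 array and 4 on all arrays. The number of enzymes is too small to set a share of them apart from these backgrounds.

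**Figure D1:**
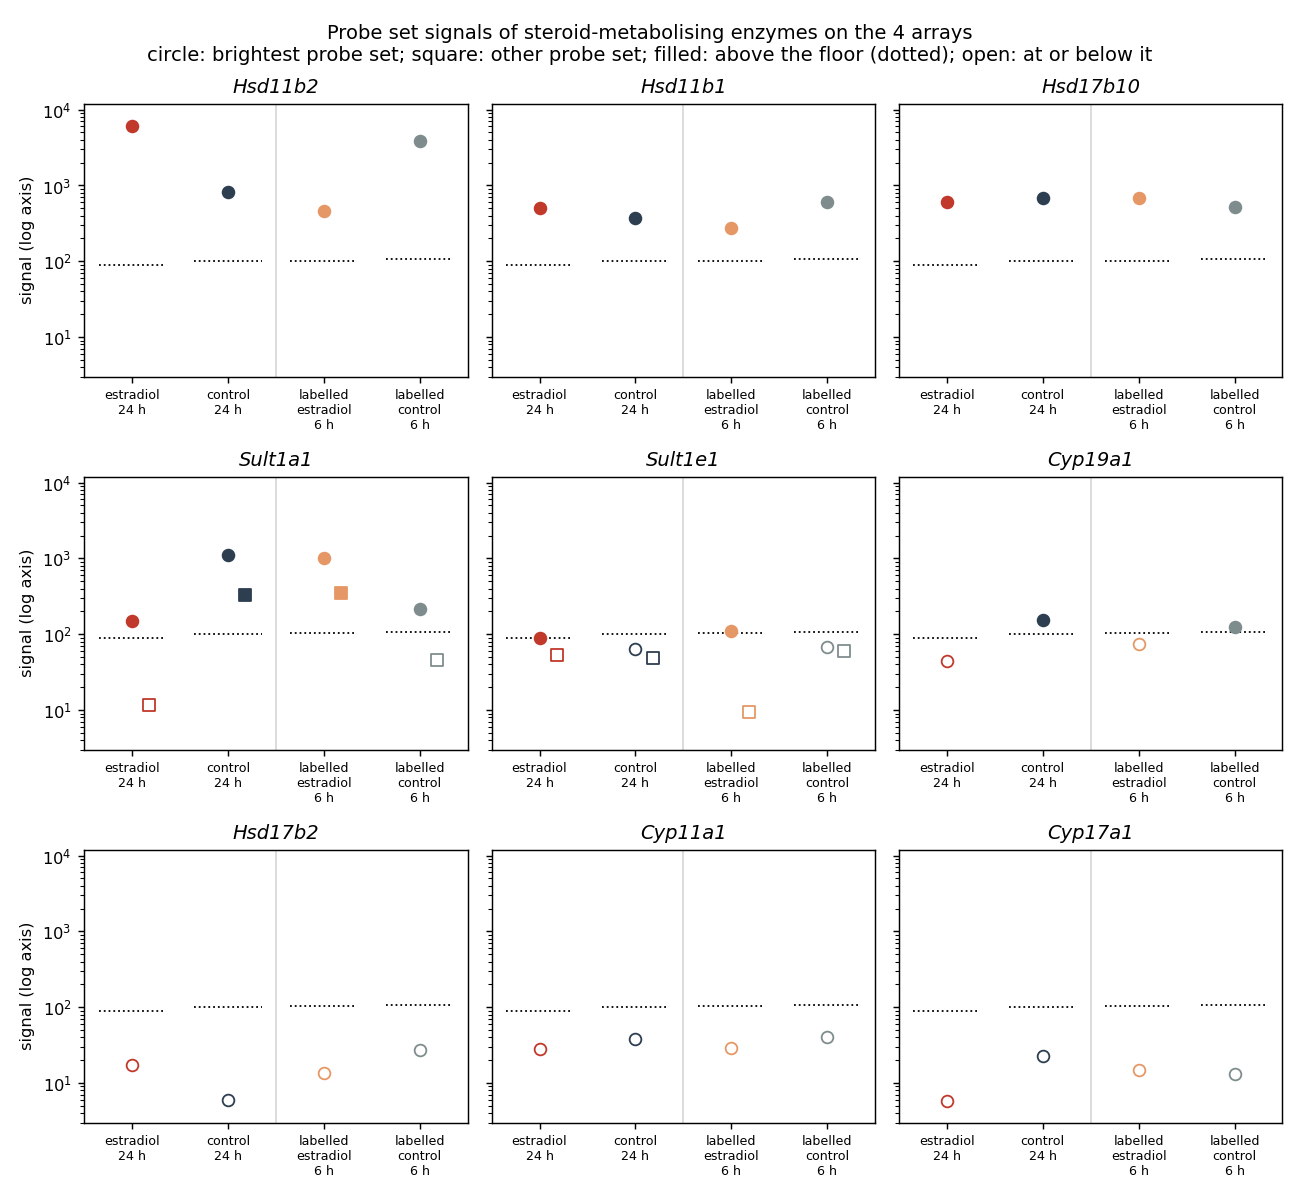
Signal of each probe set (log axis) on the 4 arrays for the 9 enzymes with a probe set, 1 point per array, with no error because each group is 1 pool. Dotted lines mark the floor of each array. Hsd11b2 stands high on the 24 h estradiol array and the 6 h control-labelled array, Sult1a1 on the other 2 arrays, and Hsd17b2, Cyp11a1 and Cyp17a1 stay below the floor.

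Promoter windows are shown for Sult1a1, which differed at both times, and for Hsd17b10, which passed the rule at neither, because they are the DNA next to the start of a gene that passed and of one that did not pass. Of the 10 genes 5 have a window in the RefSeq table used, and Hsd11b2 is not among them. Each holds 250 bases before the annotated start and 50 after it, 5′ to 3′ on the strand of the gene, from RefSeq genes on the build GRCr8. The Sult1a1 window is chr1:190706063-190706362 on the minus strand, and that of Hsd17b10 is chrX:24568301-24568600 on the plus strand. Capitals mark matches to any of 5 motifs searched on both strands.
Sult1a1: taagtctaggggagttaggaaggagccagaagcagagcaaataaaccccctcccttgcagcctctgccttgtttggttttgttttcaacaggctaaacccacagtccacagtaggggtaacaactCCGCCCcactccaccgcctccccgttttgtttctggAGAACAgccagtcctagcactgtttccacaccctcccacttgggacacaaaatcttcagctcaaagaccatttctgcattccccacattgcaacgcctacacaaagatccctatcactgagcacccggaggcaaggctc
Hsd17b10: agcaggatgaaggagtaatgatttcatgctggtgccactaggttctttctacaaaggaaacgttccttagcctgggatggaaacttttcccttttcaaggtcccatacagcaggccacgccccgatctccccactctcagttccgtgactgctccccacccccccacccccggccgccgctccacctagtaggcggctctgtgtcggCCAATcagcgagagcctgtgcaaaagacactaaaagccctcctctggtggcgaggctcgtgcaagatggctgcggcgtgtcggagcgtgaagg

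The motifs were the estrogen response element GGTCANNNTGACC, its core GGTCA, which lies within it, the glucocorticoid response core AGAACA, the GC box GGGCGG and the CCAAT box CCAAT. Over 27457 promoters of this length they occur in 0.0255%, 40.2%, 20.1%, 34.9% and 37.7%. In the Sult1a1 window the capitals are a GC box on the opposite strand, 125 to 120 bases before the start, and AGAACA 89 to 84 bases before it. In the Hsd17b10 window they are a CCAAT box, 43 to 39 bases before the start. Neither window holds GGTCA or the full element, while the windows of Sult1e1 and Cyp11a1, not shown, hold GGTCA on one of the strands. Sult1a1 has 52.3% G and C, like the median promoter at 52.3%, and Hsd17b10 has 58.3%. These matches are a description of the letters and were not tested for binding.

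Hsd11b2 inactivates glucocorticoids by oxidising corticosterone, and so keeps them from the mineralocorticoid receptor. Its probe set had a signal of 6123 in the estradiol pool and 809 in the control pool at 24 h, and of 462 on the estradiol-labelled and 3849 on the control-labelled array at 6 h. All 4 signals were at least 4.51 times the floor. The log2 difference was 2.92 at 24 h and -3.06 at 6 h. Among the 3624 genes it ranked number 21 from the highest at 24 h and number 5 from the lowest at 6 h, counting bounds at their value.

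The 2 arrays high for Hsd11b2 were those high for Igf1, Pgr and S100g. Between them, estradiol at 24 h minus the array labelled control at 6 h, the log2 difference of Hsd11b2 was 0.67. Between the 2 low arrays, labelled estradiol at 6 h minus control at 24 h, it was -0.81. Neither passed the 2-fold rule. Hsd11b2 was 1 of 54 genes, 1.49% of the 3624, that passed as higher at 24 h and as lower at 6 h.

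Hsd11b1 carries out the reverse step and regenerates active glucocorticoid from its inactive form in many tissues. It had a signal of 508 in the estradiol pool and 376 in the control pool at 24 h, and of 275 on the estradiol-labelled and 614 on the control-labelled array at 6 h. Its log2 difference of 0.43 at 24 h stayed under the rule, and that of -1.16 at 6 h passed it, but not a 3-fold rule. As for Hsd11b2, the 24 h estradiol array and the 6 h control-labelled array were its 2 highest, though the second of these was the higher for Hsd11b1. The span over the 4 arrays was 1.16 on the log2 scale, against 3.73 for Hsd11b2. The log2 difference of Hsd11b2 exceeded that of Hsd11b1 by 2.49 at 24 h, and at 6 h the same subtraction gave -1.90.

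Hsd17b10, a mitochondrial dehydrogenase that acts on steroids and on fatty acid and amino acid intermediates, was the steadiest of the bright enzymes. Its signal was 606 in the estradiol pool and 674 in the control pool at 24 h, and 679 on the estradiol-labelled and 514 on the control-labelled array at 6 h. The log2 differences were -0.16 and 0.40. Hsd17b2, which oxidises estradiol to the weaker estrone, had signals from 6.03 to 27.1, at most 0.250 of the floor of its array, so no fold can be given for it.

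Sult1a1 is a sulfotransferase of small phenols that can also sulfate estrogens. Its brighter probe set read 149 in the estradiol pool and 1096 in the control pool at 24 h, and 1003 on the estradiol-labelled and 215 on the control-labelled array at 6 h. The dimmer one read 11.6 and 325 in the same order at 24 h, and 348 and 45.5 at 6 h. In both probe sets, the control array at 24 h and the array labelled estradiol at 6 h were the high ones. The 2 probe sets stem from the same accession and are not independent measurements.

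The log2 difference of the brighter Sult1a1 probe set was -2.88 at 24 h and 2.22 at 6 h. The dimmer one was below the floor on its low arrays, so it gives bounds: at 24 h at least 3.63-fold lower with estradiol, and at 6 h at least 3.21-fold higher on the estradiol-labelled array. Sult1a1 ranked number 3 from the lowest of 3624 genes at 24 h and number 18 from the highest at 6 h. It was 1 of 68 genes, 1.88% of the 3624, that passed as lower at 24 h and as higher at 6 h. Its signal on the control array at 24 h, whose wash record holds the error, differed from that on the array labelled estradiol at 6 h by a log2 difference of -0.13, the second minus the first.

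Sult1e1, the high-affinity estrogen sulfotransferase, was at the limit of detection. Its brighter probe set read 90.1 in the estradiol pool and 64.8 in the control pool at 24 h, and 110 on the estradiol-labelled and 68.4 on the control-labelled array at 6 h. The 2 signals with the estradiol label were just above the floor, at most 1.07 times it, and no fold is given. The other probe set was dim on all arrays, with signals from 9.39 to 60.2.

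Cyp19a1, the aromatase that makes estrogens from androgens, had a signal of 44.7 in the estradiol pool and 154 in the control pool at 24 h, and of 74.7 on the estradiol-labelled and 123 on the control-labelled array at 6 h. It was above the floor on the 2 control arrays alone, at most 1.53 times the floor. The bound at 24 h was at least 1.72-fold lower with estradiol, under the 2-fold rule. With a floor at the 20th percentile its log2 difference at 24 h was -1.78, past the rule.

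Cyp11a1 cleaves the side chain of cholesterol in the first step of steroid synthesis, and Cyp17a1 leads from progestins to androgens. Cyp11a1 had signals of 28.3 and above, at most 0.382 of the floor, and Cyp17a1 signals from 5.84 to 23.0, all dim. Star, which brings cholesterol to Cyp11a1 in steroid-making glands, was dim on all arrays too. Of 8 ovary and adrenal markers on the array 6 were above the floor on at least 1 array, Star and Nr0b1 on none, and none passed the rule at either time. Their summed signal was 1398 in the estradiol pool and 1815 in the control pool at 24 h, and 2166 and 2255 in the same order at 6 h.

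**Figure D2:**
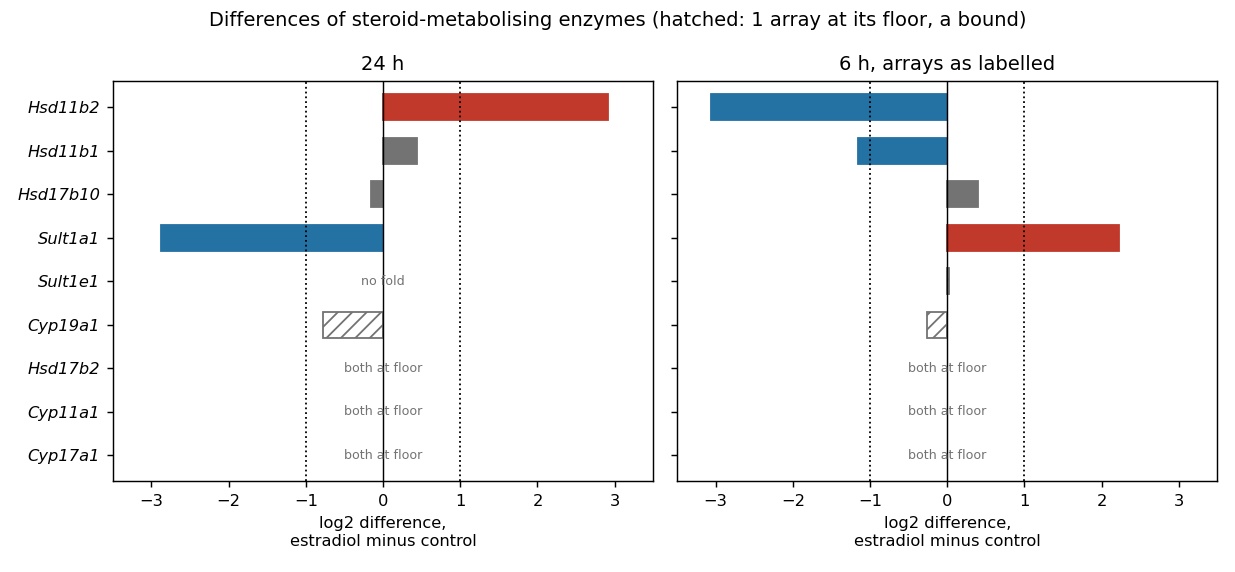
Log2 difference, estradiol minus control, of each enzyme at 24 h and at 6 h, with dotted lines at the 2-fold rule. Red bars passed as higher, blue bars as lower, grey bars did not pass and hatched bars are bounds. Hsd11b2 reaches 2.92 and -3.06 and Sult1a1 -2.88 and 2.22.

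**Figure D3:**
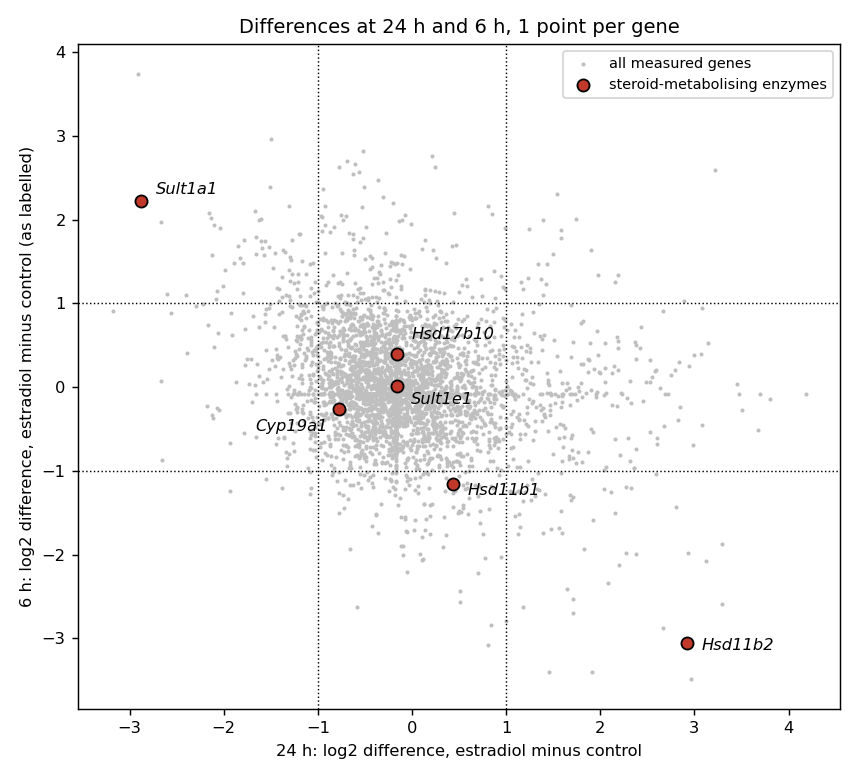
Log2 difference, estradiol minus control, at 24 h (horizontal) against 6 h as labelled (vertical), 1 grey point for each of 3624 genes and red points for the 6 enzymes above the floor on at least 1 array. Genes with a dim array are drawn at the value set by the floor. Hsd11b2 lies at the lower right and Sult1a1 at the upper left.

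Markers of other cell types also differed between the arrays. The summed signal of 7 epithelial markers was 3670 in the estradiol pool and 1237 in the control pool at 24 h, and 704 on the estradiol-labelled and 1835 on the control-labelled array at 6 h, the same high and low arrays as Hsd11b2. Of these markers 5 passed as higher at 24 h and 3 as lower at 6 h, where the shares over all genes were 8.66% and 5.08%, and Cdh16 was dim throughout. The keratins Krt8, Krt18 and Krt19 had the high arrays of Hsd11b2, and the other markers did not. Epcam read 127 in the 24 h control pool and 62.6, dim, on the 6 h control-labelled array. Cldn3 read 160 and 130 on these. Muc1 read 194 in the estradiol pool and 283 in the control pool at 24 h and did not pass. The 5 endometrial stroma markers summed to 5897 in the estradiol pool and 8189 in the control pool at 24 h, and to 5913 and 3611 in the same order at 6 h, with Hand2 dim throughout. The brightest of them was Vim, at 5208 in the control pool at 24 h. Of the stroma markers 0 were higher and 2 lower at 24 h, where 8.03% of all genes were lower, and 0 passed at 6 h. Mme was at least 3.66-fold and Vcam1 at least 2.52-fold lower at 24 h. The 6 adipocyte markers summed to 2802 in the estradiol pool and 6203 in the control pool at 24 h, and to 4981 and 5525 in the same order at 6 h, with Plin1 dim throughout. The order of the adipocyte sums is not that of the arrays for Sult1a1 or Hsd11b2. The 2 highest stroma sums lay on the 2 arrays high for Sult1a1, though 5913 and 5897 were close. Of the adipocyte markers 0 were higher and 2 lower at 24 h, and 1 higher and 0 lower at 6 h. Over all genes 8.03% were lower at 24 h and 6.46% higher at 6 h. Lpl was 6.08-fold lower at 24 h and 2.16-fold higher at 6 h, with the same high and low arrays as Sult1a1. Cfd was at least 6.28-fold lower at 24 h and did not pass at 6 h. Lep, Fabp4 and Lipe passed at neither time. Unlike Lpl, Cfd, Lep, Fabp4 and Lipe were highest on the control-labelled array at 6 h, and Fabp4 was dim on the others. The 13 macrophage and leukocyte markers summed to 8034 in the estradiol pool and 11261 in the control pool at 24 h, and to 9312 and 11809 in the same order at 6 h, with Itgam dim throughout. Of these 3 were higher and 5 lower at 24 h and 0 higher and 2 lower at 6 h. At 24 h RT1-Da was 3.44-fold lower, Cd53 2.57-fold lower and Lyz2 3.25-fold higher, and none of them passed at 6 h. Fcgr2b, a receptor for antibodies, was 2.41-fold higher at 24 h and 2.55-fold lower at 6 h. Of the epithelial, stroma, adipocyte and macrophage markers none had a signal of 0. Their part in the differences of Hsd11b2, Hsd11b1 and Sult1a1 was not tested.

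Likeness to other genes was measured as the root mean square difference between log2 profiles, each centred on its own mean over the 4 arrays, among genes above the floor on all arrays. The genes nearest to Hsd11b2 were Cd24, a surface glycoprotein, at 0.24, Cyp51, the lanosterol demethylase of cholesterol synthesis, at 0.38 and S100g, the calcium-binding calbindin-D9k, at 0.53. Cd24 read 2543 in the estradiol pool and 401 in the control pool at 24 h, and 300.1 on the estradiol-labelled and 2199 on the control-labelled array at 6 h. Nearest to Sult1a1 were Gucy1a1, part of the enzyme that nitric oxide activates, at 0.19, Ints6l at 0.28 and Agtr1a, an angiotensin receptor, at 0.35. Gucy1a1 read 195 in the estradiol pool and 1241 in the control pool at 24 h, and 1385 and 353 in the same order at 6 h. Nearest to Hsd11b1 were Atp1b3, a sodium pump subunit, at 0.03, Cct3 at 0.04 and Pemt at 0.09, all of small span. Over 4 arrays such likeness is a description.

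**Figure D4:**
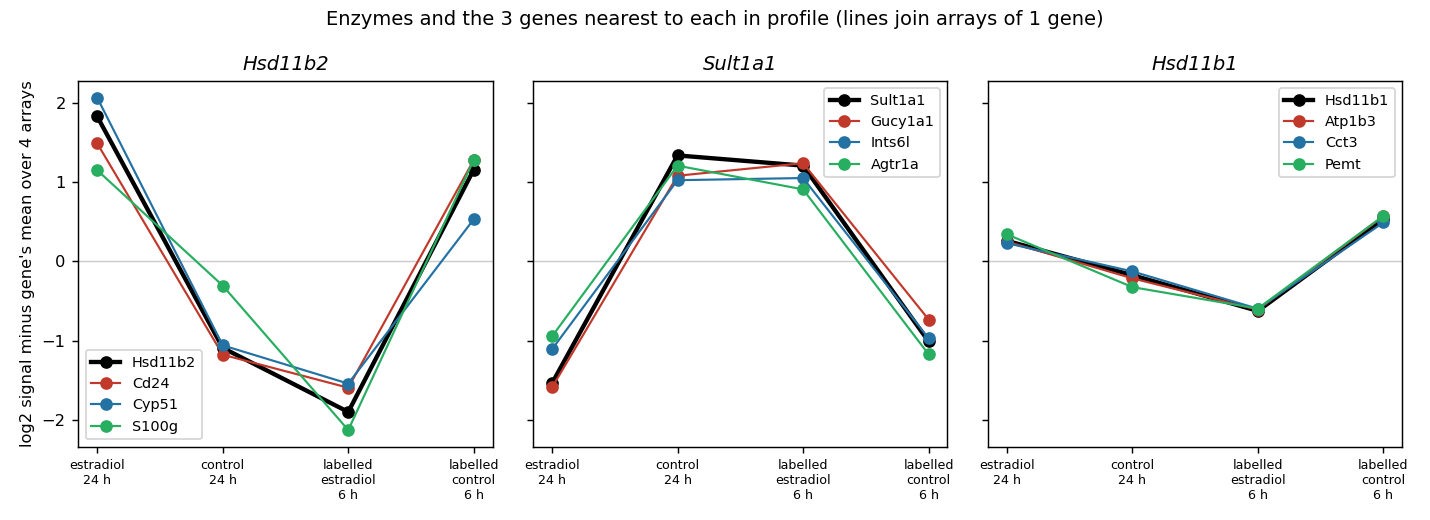
Log2 signal minus the mean of the gene over the 4 arrays, for Hsd11b2, Sult1a1 and Hsd11b1 (black) and the 3 genes nearest to each (coloured). Lines join the arrays of 1 gene and show no time course. The arrays that are high in the Hsd11b2 panel are low in the Sult1a1 panel.

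Other genes of the steroid pathway also passed the rule. Of 15 steroid synthesis genes on the array, 11 were above the floor on at least 1 array. Of these 0 were higher and 2 lower with estradiol at 24 h, and 3 were higher and 0 lower with the estradiol label at 6 h. Over all 3624 genes 16.7% passed at 24 h and 11.5% at 6 h. The median log2 differences of the list were -0.28 and 0.23, where those of all 3624 genes were -0.17 and -0.06. Cyb5a, cytochrome b5, which lends electrons to P450 enzymes, read 312 in the estradiol pool and 1279 in the control pool at 24 h, and 823 and 219.7 in the same order at 6 h. That made it 4.11-fold lower at 24 h and 3.74-fold higher at 6 h. Cyp21a1, the steroid hydroxylase of adrenal synthesis, was 2.32-fold lower at 24 h and at least 2.39-fold higher at 6 h. Scarb1, a receptor that takes up lipoprotein cholesterol, was 1.21-fold lower at 24 h, under the rule, and 3.60-fold higher at 6 h.

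Of 19 genes of steroid oxidation and reduction 16 were above the floor on at least 1 array, with 1 higher and 3 lower at 24 h and 1 higher and 4 lower at 6 h, Hsd11b1 and Hsd11b2 included, beside 16.7% and 11.5% of all genes. The medians were -0.16 and -0.33. Akr1c3, an aldo-keto reductase, was 3.82-fold lower at 24 h, Hsd17b4, a peroxisomal enzyme that also breaks down fatty acids, 2.37-fold and Akr1d1, a steroid reductase, 2.24-fold lower. Cyp1b1, which hydroxylates estradiol, read 172 in the estradiol pool and 38.7 in the control pool at 24 h, and 10.6 on the estradiol-labelled and 422 on the control-labelled array at 6 h. It was at least 4.12-fold lower at 6 h, and it was at least 1.71-fold higher at 24 h, a bound under the rule.

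Of 18 conjugation genes 12 were above the floor on at least 1 array, with 2 higher and 2 lower at 24 h and 2 higher and 0 lower at 6 h, Sult1a1 included. The shares over all genes were again 16.7% and 11.5%, and the list medians were -0.26 and 0.08. Papss1 and Papss2 make the activated sulfate that every sulfotransferase uses. Papss1 read 2036 in the estradiol pool and 276 in the control pool at 24 h, and 1445 on the estradiol-labelled and 710.1 on the control-labelled array at 6 h. It was 7.39-fold higher at 24 h and 2.03-fold higher at 6 h, and the 24 h control array was its lowest. Papss2 was 3.53-fold higher at 24 h. Sts, the sulfatase that removes sulfate from steroids, was 2.34-fold lower at 24 h. At 24 h Sult1a1 and Sts were thus lower while both Papss genes were higher with estradiol. All of these folds at 24 h rest on the control array whose wash record holds the error. Papss1 was higher with the estradiol label at both times, unlike Igf1, Pgr and S100g.

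Of 5 steroid receptor genes Pgr alone passed, higher at 24 h and lower at 6 h, beside 16.7% and 11.5% of all genes. Pgr is also a gene of the label check. The receptors on which Hsd11b1 and Hsd11b2 bear were named for that role after their values were seen. Nr3c1, the glucocorticoid receptor, read 295 in the estradiol pool and 204 in the control pool at 24 h, and 399 and 299.9 in the same order at 6 h. Nr3c2, the mineralocorticoid receptor, read 45.9 and 108 at 24 h in that order, and 165 and 114 at 6 h. Neither passed the rule.

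Genes known to be induced by glucocorticoids were listed because Hsd11b1 and Hsd11b2 set the supply of active hormone. Of 12 on the array 10 were above the floor on at least 1 array, with 2 higher and 2 lower at 24 h and 1 higher and 5 lower at 6 h. Over all genes 8.66% were higher and 8.03% lower at 24 h, and 6.46% higher and 5.08% lower at 6 h. The list medians were 0.04 at 24 h and -1.04 at 6 h. Cebpb, a transcription factor, was 4.07-fold lower at 6 h, its relative Cebpd 3.32-fold and Dusp1, a kinase phosphatase, 2.37-fold lower. At 24 h Dusp1 was 3.83-fold lower and Zfp36, which destabilises messenger RNAs, 7.91-fold higher with estradiol. Zfp36 read 982 in the estradiol pool and 124 in the control pool at 24 h, and 1261 and 2030 in the same order at 6 h, so the control array at 24 h was the low one. Cebpb, Cebpd and Dusp1 also respond to other stimuli, and which of these acted was not measured.

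**Figure D5:**
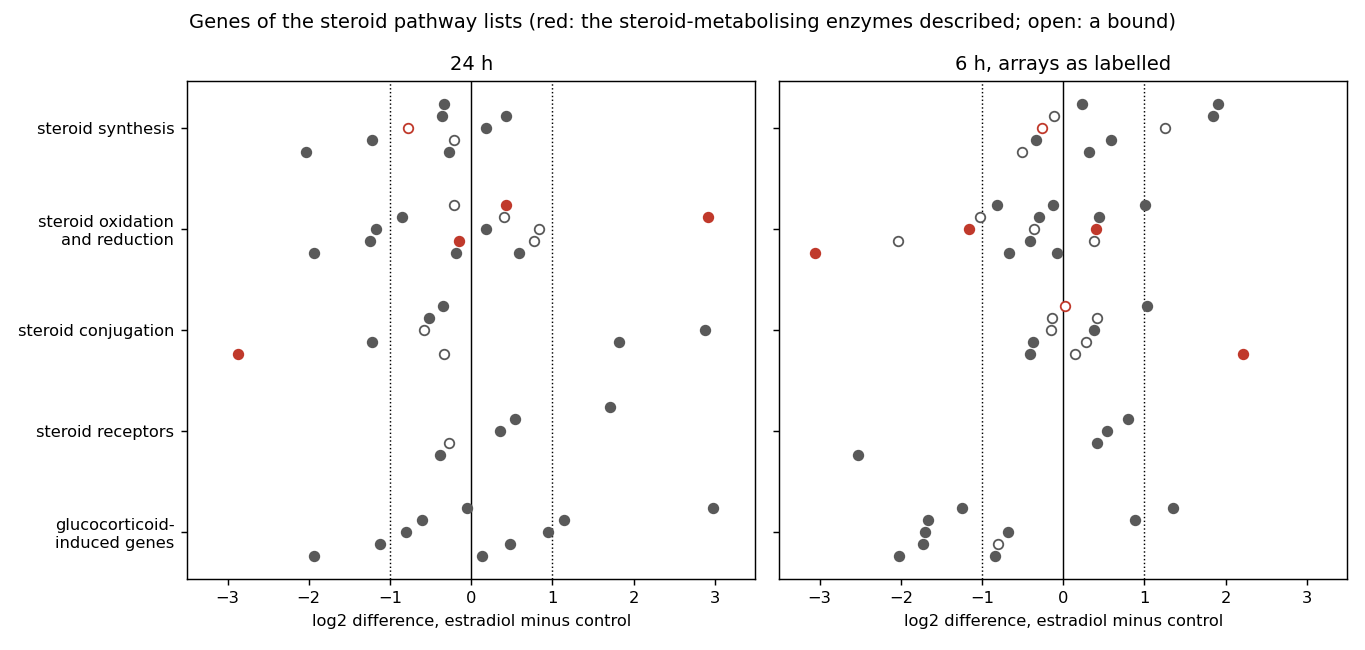
Log2 difference, estradiol minus control, at 24 h and at 6 h as labelled for the genes of 5 lists, 1 point per gene, with dotted lines at the 2-fold rule. Red points are the enzymes described above, open points are bounds, and genes for which no fold can be given are left out. Most genes lie within the rule at both times, and the glucocorticoid-induced genes lie mostly below 0 at 6 h.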

How the data were processed

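Total RNA of pooled rat myometrium was measured on 4 arrays, 1 per group. The authors deposited 1 intensity per probe set and array, made with MAS5 per the submitters' processing notes, whose version is not given in the sources used here. All columns had a 2% trimmed mean of 500, the target of the authors' scaling. The instrument records were read for chip lot, wash and scan day.

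The signals were scaled to that trimmed mean, raised to each array's 40th percentile over 8740 probe sets without the 59 controls, and turned to log2 (Python 3.11.15, pandas 2.3.3). The platform table gave 1 symbol for 7018 probe sets, 1 symbol on several gene identifiers for 11, several symbols for 297 and none for 1473. A gene was its probe set of highest mean signal. With the dimmer array at its floor a fold is a bound, with both at the floor none is given. No group has a replicate, so nothing was tested, and the number of arrays limits the precision. Calling was checked on simulated arrays with known changes. All of these were larger than 2-fold, so the check does not cover changes near the rule, a wash error or wrong labels.

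The named genes are all enzymes, up to 4 further genes per list, the 3 nearest profiles per enzyme that spanned 2-fold, and the 3 genes of the label check. The enzymes and lists were chosen with earlier results of these data known. Alternatives were values as deposited, common-median and quantile scaling, other floors, a pseudocount of 50, 1.5-fold and 3-fold rules, other choices of probe set, and the control of the other time.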

Additional observations from a re-analysis of the deposited data

Results flagged for a closer look

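Hsd11b2 passed the 2-fold rule in opposite directions at the 2 times, with a log2 difference, estradiol minus control, of 2.92 at 24 h and -3.06 at 6 h as labelled. Sult1a1 did so the other way round, with -2.88 at 24 h and 2.22 at 6 h. With 1 array per group the difference between the times was not tested, and Igf1, Pgr and S100g go against the labels at 6 h.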

How the results depend on the processing

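Under the 10 alternatives that kept the control of the same time, 2 or 3 enzymes passed at 24 h and at 6 h. Hsd11b2 kept its direction and its call in these, from 2.83 to 3.06 on the log2 scale at 24 h and from -3.14 to -2.93 at 6 h. Its value moved only with common-median scaling, quantile scaling and the pseudocount. The other settings could not move it, as it has a single probe set far above the floor and the deposited values already had the target mean. Sult1a1 also kept its direction and its call, from -2.88 to -1.86 at 24 h and from 1.68 to 2.24 at 6 h. Hsd11b1 at 6 h lay between -1.24 and -1.03 and passed in all but the 3-fold rule. Cyp19a1 passed as lower at 24 h with a floor at the 20th percentile, with a pseudocount of 50, where its value was -1.11, and with a 1.5-fold rule.

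With the control of the other time, 0 enzymes passed at 24 h and 0 at 6 h, with no test in either case. Sult1a1 at 6 h went to -0.13, which changes the sign but compares nearly equal signals of 1003 and 1096. Hsd11b2 became 0.67 at 24 h and -0.81 at 6 h. This setting joins arrays of different scan days and rests on a 6 h label that Igf1, Pgr and S100g go against, and the cause was not tested. Signals near the floor limit what can be said of Sult1e1 and Cyp19a1, and those below it of Hsd17b2, Cyp11a1 and Cyp17a1. No paired analysis was possible because each group is 1 array and no result comes from a test.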
